A study of Mus musculus with 30 samples.

Results

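Fibroblast fractions of lung organoid cultures exposed to an exacerbation cocktail (EC) were compared with those exposed to an idiopathic pulmonary fibrosis cocktail (IPFc). The comparison holds 8 of the 30 libraries of the series, 4 EC and 4 IPFc libraries, chosen by their treatment and fraction labels and paired by mouse. EC contained 4 factors and IPFc 9 factors. TNFα, IL-1β and IL-8, whose mouse counterpart is KC, were in both. IL-6 was in EC alone, and TGF-β, TSLP, CCL2, IL-33, IL-13 and IL-4 were in IPFc alone. Concentrations of the IPFc factors are not given in the sources used here. Each culture was seeded with 300000 primary CD31-CD45-Epcam+ lung cells of a C57BL/6J mouse and the same number of CCL206 cells in Matrigel and was exposed for 72 hours. CCL206 is a mouse lung fibroblast line, used here after mitomycin C had stopped its proliferation, so the fibroblasts of all 4 mice are 1 line and the mouse differs in its epithelial cells. The cultures were then dissociated and separated with Epcam microbeads, and the Epcam- cells gave the fibroblast libraries. Fibroblast libraries of vehicle cultures (3 libraries) and of cultures with 2 ng/ml TGF-β (4 libraries) are given below as levels only.

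Lung fibroblasts hold the matrix around the airways and alveoli and send growth factors to the epithelial progenitors beside them. IL-1β and TNFα act on them through NF-κB and IL-6 acts through STAT3, and these routes are known for acute-phase proteins, complement components and neutrophil chemokines. TGF-β acts through SMAD proteins and is known for collagen synthesis and contractile genes, IL-4 and IL-13 act through STAT6, and IL-33 binds ST2, the receptor encoded by Il1rl1.

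The libraries held 5113828 to 18447405 reads counted on genes in EC and 12904117 to 16769349 in IPFc. Fibroblast markers were present in every library. Col1a1, a chain of type I collagen, was at 799 to 1240 CPM (counts scaled to the library size) in EC and at 1200 to 1750 CPM in IPFc, whereas Thy1, a surface marker of many fibroblasts, had 1 read in the 8 libraries together. The EC library of mouse 1 stood apart. It had the fewest reads, 1.13% of its reads were mitochondrial against 1.63 to 2.28% in the other 7 libraries, and it lay at -44.4 on the first principal component against -9.63 to 19.4 for the others. Relative to the mean of the other EC libraries, the fifth of genes with the longest transcripts was lower in it by a median log2 difference of -0.82. The fifth with the shortest was higher by 0.38. In the remaining libraries, each set against the others of its own treatment, both stayed between -0.16 and 0.36. The library of mouse 1 enters the mean against which the other EC libraries were set. For this reason mixture-adjusted values of the genes the results turn on are given with and without mouse 1.

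Epithelial RNA took a larger share of the EC libraries. The share was estimated as the median ratio of CPM between a fibroblast library and the epithelial library of the same culture, taken across the epithelial reference genes that reached 50 CPM in the latter. It was 41.2, 41.8, 40.6 and 60.7% in the EC libraries of mice 1 to 4, and 12.5, 19.3, 19.6 and 36.8% in the IPFc libraries. All EC libraries lay above all IPFc libraries, and in both groups mouse 4 was the highest. The mean was 46.1% ± 9.79 in EC and 22.1% ± 10.4 in IPFc (SD, n = 4 mice), so that EC was higher by 24.0 percentage points (SD 3.29), and in 4 of 4 pairs (exact two-sided sign-flip permutation test, p = 0.125, the smallest value 4 pairs allow). The exact permutation test without pairs gave p = 0.0286. A second estimate, the ratio of summed CPM over 4 Y-linked genes, gave 36.6% ± 4.38 and 16.9% ± 5.27. For mouse 4 this estimate was lower than the first, at 37% in EC and 21.1% in IPFc. By the Y-linked genes the highest libraries were those of mouse 1 in EC (42.5%) and mouse 2 in IPFc (21.4%). The vehicle libraries had shares of 17.9 to 32.7% and the 3 TGF-β libraries whose partner library was used (mice 2 to 4) of 1.2 to 3.9%. The share is relative. In bulk RNA, more epithelial cells in the Epcam- fraction, more RNA per such cell and less fibroblast RNA cannot be told apart. The same holds for every level below.

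**Figure D1:**
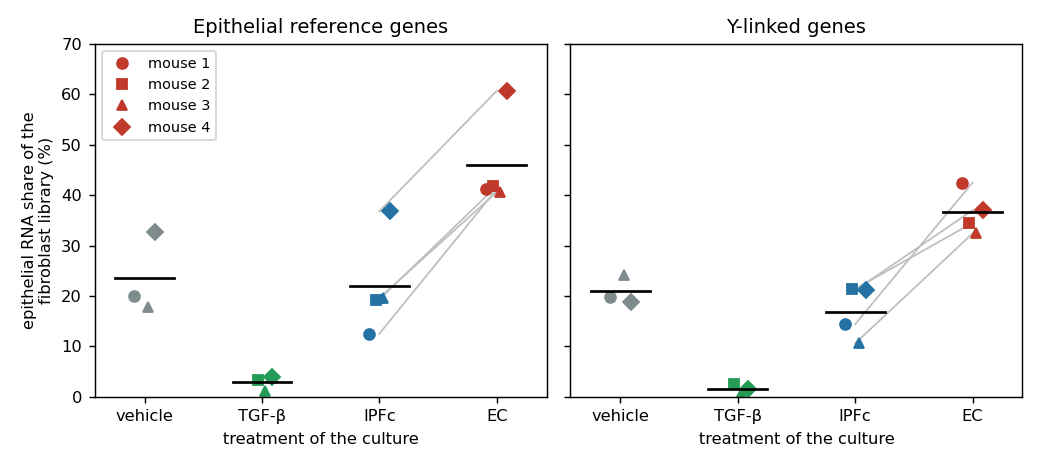
Estimated epithelial RNA share (%) of each fibroblast library by treatment, with 1 point per mouse, lines joining the EC and IPFc libraries of a mouse, and the group mean. The 4 EC libraries lie between 40.6 and 60.7%, above the 4 IPFc libraries at 12.5 to 36.8%.

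Most markers of the separated cell types differed in the direction of this share. Epcam, the antigen of the separation, was at 87.6, 69.7, 69.9 and 111 CPM in EC and at 21.6, 28.1, 29.6 and 55.6 CPM in IPFc. Cdh1, Sftpb, Krt8 and Krt18 were also higher in EC in every pair, and Col1a1, Col1a2, Col3a1 and Pdgfra were lower. Sftpc did not follow, at 2930, 2310, 1650 and 2140 CPM in EC and 928, 2350, 2290 and 1960 CPM in IPFc. Neither did Pdgfrb, at 27.4, 59.8, 57.3 and 37.9 CPM in EC and 54.2, 44, 50.6 and 39.4 CPM in IPFc. The 38 epithelial reference genes summed to 1.44e+04 to 2.11e+04 CPM in EC and 4.73e+03 to 1.18e+04 CPM in IPFc, and the fibroblast reference genes to 1.53e+04 to 2.45e+04 and 2.54e+04 to 3.36e+04 CPM. Both sums had the same direction in 4 of 4 pairs (exact sign-flip permutation test, p = 0.125 each). The share was itself estimated from the epithelial reference genes, so their sum is no separate evidence of it. Immune markers summed to 243 to 335 CPM in EC and 102 to 142 CPM in IPFc, higher in EC in 4 of 4 pairs (exact p = 0.125), with 14 of 25 listed genes tested and Lyz2 and Cd14 called higher. Their defining genes were nearly absent, since Ptprc, the CD45 gene of leukocytes, was at no more than 0.304 CPM and Adgre1, a macrophage receptor, at no more than 0.155 CPM. Endothelial markers summed to 27 to 37.5 and 20.3 to 29.2 CPM (exact p = 0.5), and Pecam1, which encodes CD31, was at no more than 1.17 CPM. Mesothelial and pericyte markers summed to 1.3e+03 to 2.22e+03 CPM in EC and 763 to 1.32e+03 CPM in IPFc (exact p = 0.125). In that list Krt19 and Msln, which epithelial cells also express, were called higher, and Cspg4 and Mcam, surface markers of pericytes, were called lower.

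Compared on the counts as deposited, with edgeR's quasi-likelihood test and the mouse as a block, 820 of 18053 genes were differentially expressed genes (DEGs) with a Benjamini-Hochberg adjusted p under 0.05, which is 4.54% of the genes tested. Of these, 627 were higher in EC (3.47%) and 193 were lower (1.07%). Without mouse 1 there were 4046 DEGs (22.1%), 2139 higher (11.7%) and 1907 lower (10.4%), among them all 820 in the same direction. In that fit edgeR took the variance from the trend over genes alone, which makes its p-values optimistic. In CPM, the 4 EC libraries lay above the 4 IPFc libraries without overlap for 4.91% of the genes tested and below them for 6.42%. Both directions differed in their expected epithelial content. For each gene the expected epithelial part was computed as the epithelial share times the CPM of the partner library, in percent of the gene's own CPM over the 8 libraries. A part over 50% belonged to 587 of the 627 higher genes (93.6%), against 23.5% of all genes tested. Among the 193 lower genes, 163 (84.5%) had a part of at most 20%, against 30.9% of all genes tested. The median log2 fold change was -0.33 over the 5575 genes with a part of at most 20%, called fibroblast-borne here, and 0.45 over the 4250 genes with a part over 50%, so that both classes were shifted with the share.

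**Figure D2:**
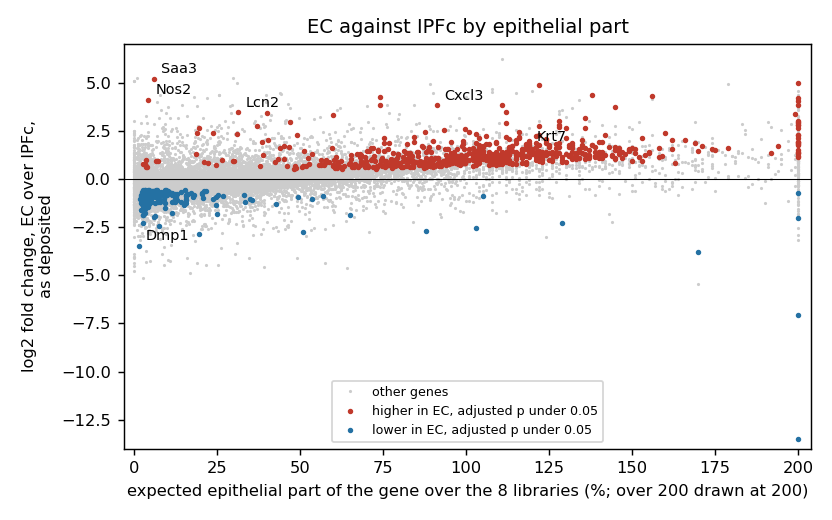
Log2 fold change of EC over IPFc on the deposited counts (vertical axis) against the expected epithelial part of each gene in percent (horizontal axis, larger values drawn at the right edge), with DEGs in red (higher in EC) and blue (lower). Of the 627 higher genes 587 lie beyond 50%, and of the 193 lower genes 163 lie at or below 20%.

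Genes were therefore read on 2 further scales. In the first, the fit received for each gene and library the level expected if the fibroblasts of a mouse had the same level under both cocktails and the epithelial RNA were added in its estimated share. What remains is called the mixture-adjusted log2 difference. Its median was -0.01 over the fibroblast-borne genes and -0.09 over the genes with a part over 50%. With 4 mice it left 2 DEGs (0.0111% of 18053), Lcn2 and Saa3, both higher in EC. Without mouse 1 it left 138 DEGs (0.764%), of which 104 were higher (0.576%) and 34 lower (0.188%), 88 were fibroblast-borne and 68 were among the 820. In the second, the fibroblast-borne genes were fitted on their own, so that the normalization ran among these genes alone. This gave 44 DEGs (0.789% of 5575), 22 in each direction (0.395% each), and 463 DEGs (8.3%) without mouse 1, 211 higher (3.78%) and 252 lower (4.52%), among which were all 44 with the same direction. Without mouse 1 this fit too took the variance from the trend alone. Its p-values, and the counts from it given below, are therefore optimistic. With mouse 1 the genes varied by 20.6% between pairs (biological coefficient of variation of the deposited comparison), and without it by 8.02%.

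Saa3 and Lcn2, which encode secreted proteins of inflammation, were the genes called higher in EC both on the deposited counts and mixture-adjusted with 4 mice. Saa3 (ENSMUSG00000040026), which encodes the serum amyloid A protein made by stromal cells and macrophages under inflammation, was at 243, 86.2, 52.4 and 69.7 CPM in the EC libraries of mice 1 to 4 and at 3.81, 3.37, 0.954 and 3.41 CPM in the IPFc libraries. Every EC library lay far above every IPFc library, and the EC library of mouse 1 was the highest. The log2 fold change was 5.20 (SE 0.31, adjusted p = 0.00013 in edgeR's quasi-likelihood fit). The expected epithelial part was 5.94%, and the mixture-adjusted log2 difference was 5.48 (adjusted p = 0.0099) with 4 mice and 5.05 without mouse 1. Vehicle libraries had 1.02 to 2.95 CPM, and none of the 4 TGF-β libraries had a read, which allows up to 0.18 to 0.244 CPM (3 reads per library; counting error only).

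Lcn2 (ENSMUSG00000026822), which encodes lipocalin 2, a protein that withholds iron from bacteria, was at 343, 351, 255 and 264 CPM in EC and 21.6, 33.2, 30.1 and 26.8 CPM in IPFc. The groups were far apart and each was narrow. The log2 fold change was 3.47 (SE 0.19, adjusted p = 0.00011 in edgeR's quasi-likelihood fit). Epithelial cells express Lcn2 too, at 181 to 288 CPM in their own EC libraries, and the expected epithelial part was 31.5%. The mixture-adjusted log2 difference was 3.07 (adjusted p = 0.0099) with 4 mice and 2.83 without mouse 1. Nos2, the inducible nitric oxide synthase, was low but separated, with 2.35, 5.67, 3.59 and 1.84 CPM in EC and 0.147, 0, 0.179 and 0.387 CPM in IPFc. Its log2 fold change was 4.11 (adjusted p = 0.01 with edgeR), and the adjusted p of the mixture-adjusted difference was 0.38 with 4 mice and 0.00033 without mouse 1. Hp, the haemoglobin-binding haptoglobin, was at 752 ± 96.7 CPM in EC and 240 ± 66.9 CPM in IPFc (SD, n = 4 mice). Its log2 fold change was 1.70 as deposited, and the mixture-adjusted difference was 1.23 with 4 mice (adjusted p = 0.86 with edgeR) and 0.89 without mouse 1 (adjusted p = 0.0004). Slpi, a secreted inhibitor of neutrophil elastase, was named after its values were seen. It was at 248, 104, 75.3 and 83.9 CPM in EC and between 15.7 and 22.4 CPM in IPFc, with a log2 fold change of 2.62.

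Of 24 complement genes tested, 5 were higher in EC and 1 was lower on the deposited counts, against 3.47% and 1.07% of all genes tested. C1ra (ENSMUSG00000055172), which encodes a protease that starts the classical pathway, was at 159, 208, 167 and 141 CPM in EC and 118, 123, 109 and 96.3 CPM in IPFc. The lowest EC library lay above the highest IPFc library. The log2 fold change was 0.62 (SE 0.12, adjusted p = 0.024 in edgeR's quasi-likelihood fit), and the mixture-adjusted difference was larger, 1.04 with 4 mice (adjusted p = 0.29) and 1.09 without mouse 1 (adjusted p = 1.3e-05). Serping1, the inhibitor of the same protease, was at 44.4, 45.7, 41.7 and 34.5 CPM in EC and 19.9, 22.1, 23.9 and 21.1 CPM in IPFc, with log2 values of 0.96 as deposited and, mixture-adjusted, 1.39 with 4 mice (adjusted p = 0.23 with edgeR) and 1.31 without mouse 1. C1s2, a copy of the next protease, overlapped between the groups in CPM (12.3 to 26.8 and 8.45 to 13.8), was higher in 4 of 4 pairs and had a log2 fold change of 0.77 (adjusted p = 0.028 with edgeR). Its near-identical neighbour C1s1 was also called higher, and reads that fit both copies may have been split between them. Masp1, a protease of the lectin pathway, went the other way, with a log2 fold change of -0.94 that was -0.46 mixture-adjusted with 4 mice and -0.27 without mouse 1 (adjusted p = 0.99 and 0.41 with edgeR).

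The 24 complement genes had a median log2 fold change of 0.19 on the deposited counts, against -0.02 over all genes tested. The fifth higher gene was Clu, the chaperone clusterin, whose expected epithelial part was 124%. Mixture-adjusted without mouse 1, 0.576% of all genes tested were higher and 0.188% lower. Of the complement genes 7 were higher in that fit, the same 5 with C3 and C4b, and none was lower, with a median of 0.57 against 0.02. With 4 mice the mixture-adjusted fit called none. Of the 18 that were fibroblast-borne, the fit of that class called 4 higher with 4 mice, and 7 higher and 1 lower without mouse 1. In the whole class 0.395% were higher with 4 mice, and 3.78% were higher and 4.52% lower without mouse 1. C3, the component on which the pathways meet, was at 1430, 2890, 2650 and 2190 CPM in EC and 1960 to 2450 CPM in IPFc, so its deposited values overlapped and its log2 fold change was -0.01. In the TGF-β libraries C3 was at 24.1 ± 2.99 CPM and C1ra at 11.3 ± 0.94 CPM (SD, n = 4), against 1070 ± 64.1 and 141 ± 8.88 CPM in vehicle (n = 3). Dcn, which encodes decorin, a small proteoglycan that binds collagen and TGF-β, was the 1 gene of the fibroblast reference list called higher in EC. It was at 361, 321, 289 and 242 CPM in EC and at 175 to 212 CPM in IPFc, without overlap. For Dcn the log2 fold change was 0.69 (adjusted p = 0.023 with edgeR) and its mixture-adjusted difference was 1.11 with 4 mice (adjusted p = 0.29) and 1.02 without mouse 1. Enpp2, which encodes autotaxin, the enzyme that makes lysophosphatidic acid, was named after its values were seen. It was at 163 to 255 CPM in EC and 97.2 to 135 CPM in IPFc (log2 fold change 0.94), and at 227 ± 33.5 CPM in vehicle.

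The promoter windows of 3 of these genes and of Il1rl1 are shown because they hold the 8-base C/EBP pattern TTGCNNAA, with the match in capitals. They run from 250 bases before to 50 bases after the annotated start and come from RefSeq on GRCm38.p6 (5′ to 3′ on the strand of the gene). The minus-strand windows are Saa3 at chr7:46715627-46715926 and Lcn2 at chr2:32387690-32387989, and the plus-strand windows are C1ra at chr6:124512371-124512670 and Il1rl1 at chr1:40429320-40429619.
Saa3: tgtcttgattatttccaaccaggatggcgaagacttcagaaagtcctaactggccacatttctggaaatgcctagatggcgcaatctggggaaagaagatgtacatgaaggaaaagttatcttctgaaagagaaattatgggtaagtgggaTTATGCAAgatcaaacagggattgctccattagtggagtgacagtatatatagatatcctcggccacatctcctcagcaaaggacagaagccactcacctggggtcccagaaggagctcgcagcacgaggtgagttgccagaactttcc
Lcn2: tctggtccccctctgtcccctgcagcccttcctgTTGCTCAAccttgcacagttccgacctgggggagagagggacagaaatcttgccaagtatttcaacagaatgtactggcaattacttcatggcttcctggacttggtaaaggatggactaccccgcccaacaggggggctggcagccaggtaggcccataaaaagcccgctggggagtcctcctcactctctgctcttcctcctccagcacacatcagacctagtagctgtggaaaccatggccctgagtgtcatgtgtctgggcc
C1ra: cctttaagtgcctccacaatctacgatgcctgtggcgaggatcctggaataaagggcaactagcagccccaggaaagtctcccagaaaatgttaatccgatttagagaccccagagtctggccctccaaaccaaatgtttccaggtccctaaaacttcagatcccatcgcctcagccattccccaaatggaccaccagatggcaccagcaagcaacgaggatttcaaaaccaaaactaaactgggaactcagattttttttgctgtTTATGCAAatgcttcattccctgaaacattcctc
Il1rl1: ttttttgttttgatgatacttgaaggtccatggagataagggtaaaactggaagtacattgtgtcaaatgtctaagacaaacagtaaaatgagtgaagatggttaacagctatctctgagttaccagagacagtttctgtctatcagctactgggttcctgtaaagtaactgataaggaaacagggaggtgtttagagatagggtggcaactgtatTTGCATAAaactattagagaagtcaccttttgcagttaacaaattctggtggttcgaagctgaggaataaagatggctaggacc
The pattern was searched on both strands after the genes' values were known. It was present in 3547 of 32851 windows of all genes (10.8%), and 6 of the 13 searched genes that had a window held it, C1ra, C1s1, Il1rl1, Lcn2, Saa3 and Slpi. The percentages count windows and the searched set counts genes, so the 2 are not like for like. A gene can have more than 1 window, as Il1rl1 has 2, of which 1 is shown. The STAT pattern TTCNNNGAA was present in 8.3% of all windows and in C1ra and Prl2c3, and the STAT6 motif, which has 4 free bases in place of 3, in 6.95% and in Lcn2. The NF-κB motif was present in 8.46% of all windows and in none of the searched genes. Il1rl1 was among the holders of the C/EBP pattern although its level went the other way.

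**Figure D3:**
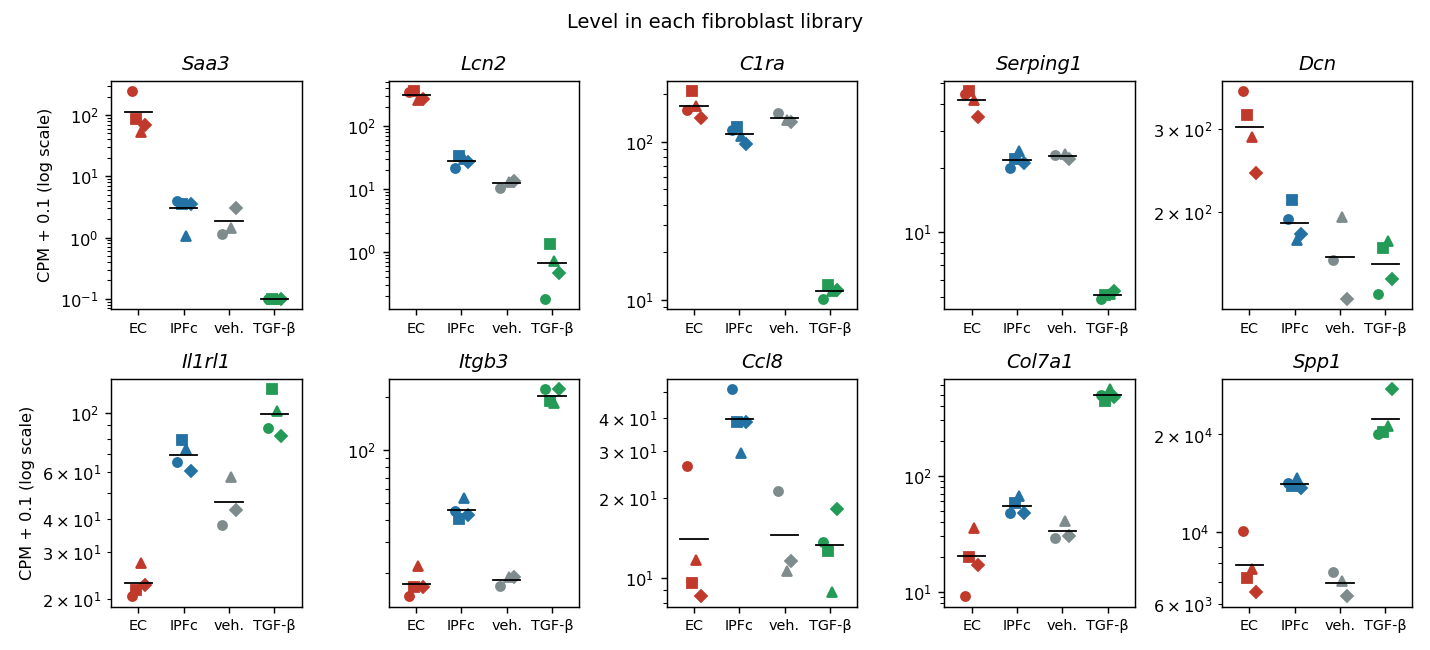
CPM + 0.1 of 10 genes in each fibroblast library by treatment, on a logarithmic axis, with a circle, square, triangle and diamond for mice 1 to 4 and a line at the group mean. Vehicle (veh.) has no library of mouse 2. Saa3, Lcn2 and C1ra lie higher in every EC library than in every IPFc library, and Il1rl1 lies lower, at 20.3 to 27.1 CPM against 60.3 to 79.4 CPM.

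Of the 15 receptor genes of the cocktail factors that were tested, Il1rl1 was called on the deposited counts, and Il1rl1, Il1rap and Tnfrsf1b did not overlap between the cocktails. Over all genes tested, 4.91% lay above without overlap in EC and 6.42% below, so few such genes are little apart from that share. Il1rl1 (ENSMUSG00000026069), the IL-33 receptor, was at 20.3, 21.5, 27.1 and 22.4 CPM in EC and at 65.5, 79.4, 73.4 and 60.3 CPM in IPFc. The groups were separated by more than the range of either. The log2 fold change was -1.58 (SE 0.15, adjusted p = 0.0014 in edgeR's quasi-likelihood fit), and the mixture-adjusted difference was -1.07 with 4 mice (adjusted p = 0.39) and -1.05 without mouse 1 (adjusted p = 0.00043). Vehicle libraries had 37.9 to 57.6 CPM, between the cocktails, and TGF-β libraries had 82.2 to 123 CPM, all without adjustment for the epithelial share.

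The median log2 fold change of the 15 was -0.105. Without mouse 1 the deposited counts gave 4 higher and 6 lower, where 11.7% of all genes tested were higher and 10.4% lower. That fit took the variance from the trend alone, so its p-values are optimistic. The IL-1 receptor genes Il1r1 and Il1rap had log2 values of -0.29 and -0.60, the IL-6 receptor genes Il6ra and Il6st -0.41 and -0.49, and the TNF receptor genes Tnfrsf1a and Tnfrsf1b -0.15 and 0.54 (adjusted p of 0.052 or more with edgeR). Il1rap lay below IPFc in every EC library, at 9.97 to 25 against 25.6 to 31.2 CPM. Tnfrsf1b lay above IPFc in every EC library, at 85.1 to 94.5 against 57 to 75.6 CPM, and its expected epithelial part was 39.5%. For IL-4 and IL-13, Il4ra was at 0.35 and Il13ra1 at -0.37, and the common chain Il2rg had at most 0.304 CPM in the EC and IPFc libraries. The decoy receptor gene Il13ra2 was at 0.19 and turned, mixture-adjusted, to -0.66 with 4 mice (adjusted p = 0.99) and -1.0 without mouse 1 (adjusted p = 0.04). Crlf2, the TSLP receptor gene, was at 0.06, and the TGF-β receptor genes Tgfbr1, Tgfbr2 and Tgfbr3 at 0.10, 0.07 and -0.06, where Tgfbr3, which encodes betaglycan, turned to 0.39 mixture-adjusted with 4 mice (adjusted p = 0.99) and 0.54 without mouse 1 (adjusted p = 0.018).

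The fibroblast libraries also carried the genes of the factors themselves. Of 7 tested, Il33 alone was called, with 107, 146, 105 and 166 CPM in EC and 50, 80.7, 53.9 and 73.6 CPM in IPFc and a log2 fold change of 1.05 (adjusted p = 0.004 in edgeR's quasi-likelihood fit). Its level in EC was above IPFc in every library, yet its expected epithelial part was 109% and its mixture-adjusted difference was -0.35. Ccl2, the monocyte chemokine of IPFc, was at 402, 293, 266 and 148 CPM in EC and 242, 353, 377 and 467 CPM in IPFc, with overlap and without a call. Its log2 value was -0.39 with 4 mice and -0.80 without mouse 1, where it was called (adjusted p = 8.3e-25 with edgeR), and -0.31 when that fit was mixture-adjusted (adjusted p = 0.53). Cxcl1, which encodes KC, was at 130 to 183 CPM in EC and 74.4 to 421 CPM in IPFc, and the IPFc libraries enclosed the EC range. Without mouse 1 the log2 value of Cxcl1 went from -0.16 to -0.64 (adjusted p = 2.4e-14 with edgeR), and to -0.24 mixture-adjusted (adjusted p = 0.7). Tgfb1 differed little in level, at 65.4 ± 5.93 and 69.9 ± 5.33 CPM (SD, n = 4), and Il6 was at 3.56 ± 2.25 and 4.35 ± 2.96 CPM. Tnf and Tslp were near the limit of detection, at no more than 1.03 CPM.

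Besides Il1rl1, Csf2rb and Ccl8 were lower in EC on the deposited counts, with expected epithelial parts of 2.59% and 2.12%. Csf2rb, the shared signalling chain of the GM-CSF, IL-3 and IL-5 receptors, was at 26.8, 32.3, 29.7 and 26 CPM in EC and at 96, 77.2, 66.4 and 58 CPM in IPFc. No EC library reached the lowest IPFc library. In CPM the vehicle (24.9 to 38.2) and TGF-β libraries (25.7 to 29.2) were near the EC level. The estimated epithelial shares of vehicle and TGF-β libraries were below those of EC libraries, and these levels were not adjusted for that. For Csf2rb the log2 fold change was -1.32 (adjusted p = 0.0028 with edgeR). The mixture-adjusted difference was -0.82 with 4 mice (adjusted p = 0.89) and -0.67 without mouse 1 (adjusted p = 0.015). Ccl8, a chemokine for monocytes and eosinophils, was at 26.2, 9.47, 11.6 and 8.4 CPM in EC and at 51.3, 38.7, 29.4 and 38.4 CPM in IPFc. The groups did not overlap, mouse 1 was the highest of each, and vehicle and TGF-β libraries lay at 10.5 to 21.2 and 8.76 to 18.1 CPM. The log2 fold change was -1.60 (adjusted p = 0.0051 with edgeR), and mixture-adjusted -1.10 with 4 mice (adjusted p = 0.79) and -1.32 without mouse 1 (adjusted p = 0.00013). Azin2, an inhibitor of the antizymes that limit polyamine synthesis, was at 14 to 19.2 CPM in EC and 38.9 to 42.2 CPM in IPFc (log2 fold change -1.24), with a part of 9.42%.

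Ccl8 and Il1rl1 belong to a list of IL-4 and IL-13 target genes, of which 34 were tested. On the deposited counts 7 were lower in EC and 1, Pparg, was higher, with a median log2 fold change of -0.38 against -0.02 over all genes. Over all genes tested 1.07% were lower and 3.47% higher. Of the 7, Chil4, Clca1 and Retnla had expected epithelial parts over 100%. Chil4, a chitinase-like protein of type 2 inflammation, had no read in 3 of 4 EC libraries, which allows up to 0.182 to 0.587 CPM (3 reads per library), and 0.0542 CPM in the fourth, against 198, 197, 258 and 500 CPM in IPFc, where the epithelial partners averaged 3910 CPM. Its mixture-adjusted difference was not called. Cish, a feedback inhibitor of STAT signalling, and Chil3, with 0 to 2.35 CPM in EC and 0.749 to 15.2 CPM in IPFc, were the other two. Mixture-adjusted without mouse 1, 0.188% of all genes tested were lower and 0.576% higher. In this list 3 genes were lower (Il13ra2, Ccl8 and Il1rl1), none was higher, and the median was 0.03. With 4 mice the mixture-adjusted fit called none, and among the 17 fibroblast-borne members the fit of that class called 3 lower with 4 mice, and 5 lower and 1 higher without mouse 1. In the whole class 0.395% were lower with 4 mice, and 4.52% were lower and 3.78% higher without mouse 1.

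Several of the lower genes had their highest mean level in the TGF-β libraries. Itgb3, the β3 integrin chain that binds osteopontin and latent TGF-β, was at 14.7, 16.6, 21.9 and 16.6 CPM in EC and at 44.9, 40.7, 53.5 and 42.9 CPM in IPFc. In CPM, EC libraries lay around the vehicle range of 16.9 to 19, IPFc was above that range in every library, and TGF-β libraries had 187 to 223. These levels were not adjusted for the epithelial share, which was larger in EC than in vehicle libraries. The log2 fold change was -1.36 (adjusted p = 0.0018 in edgeR's quasi-likelihood fit), with a mixture-adjusted difference of -0.86 with 4 mice (adjusted p = 0.59) and -0.80 without mouse 1 (adjusted p = 0.0043). Dmp1, a phosphoprotein of mineralized matrix, was at 0.391, 0.144, 0.426 and 0.867 CPM in EC, at 4.54, 4.27, 6.98 and 4.73 CPM in IPFc and at 204 to 249 CPM in TGF-β libraries. Its EC values were from few reads, and its log2 fold change was -3.46 (SE 0.43, adjusted p = 0.0033 with edgeR). Lgr6, a receptor for R-spondins, was at 4.3, 6.31, 10.9 and 6.56 CPM in EC and 20.5 to 31.7 CPM in IPFc, with a log2 fold change of -1.75 and a mixture-adjusted difference of -1.24 with 4 mice (adjusted p = 0.38) and -1.09 without mouse 1 (adjusted p = 0.0011). Ank, a transporter that releases pyrophosphate precursors, was at 76.1 to 121 CPM and 213 to 237 CPM, and Prl2c3, a prolactin-family hormone also called proliferin, at 9 to 16.3 and 25.5 to 46.3 CPM. The levels in vehicle and TGF-β libraries were not tested against either cocktail here.

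Of 34 collagens tested, 4 were lower in EC and none was higher on the deposited counts, and in the other matrix lists most members did not pass the test. Over all genes tested 1.07% were lower, and of the 5575 fibroblast-borne genes 163 were lower. Col7a1 (ENSMUSG00000025650), the anchoring fibril collagen, was at 9, 19.9, 35.4 and 16.8 CPM in EC and at 48, 58.2, 66.1 and 47.3 CPM in IPFc. The EC library of mouse 1 was the lowest and the groups did not overlap. For Col7a1 the log2 fold change was -1.52 (SE 0.21, adjusted p = 0.0053 with edgeR), and mixture-adjusted -1.13 with 4 mice (adjusted p = 0.79) and -0.89 without mouse 1 (adjusted p = 0.0033). Fbln5, a protein that helps to assemble elastic fibres, was at 12.7 to 16.6 CPM in EC and 32.4 to 40.8 CPM in IPFc, with a log2 fold change of -1.27 and mixture-adjusted differences of -0.78 with 4 mice (adjusted p = 0.72 with edgeR) and -0.75 without mouse 1 (adjusted p = 0.012). In vehicle Fbln5 was at 38.9 ± 2.16 CPM (SD, n = 3). Spp1, which encodes osteopontin, a ligand of integrins, was among the most abundant transcripts, at 6540 to 10100 CPM in EC and 13700 to 14700 CPM in IPFc. Spp1 had a log2 fold change of -0.83, and mixture-adjusted -0.36 with 4 mice (adjusted p = 0.99 with edgeR) and -0.50 without mouse 1 (adjusted p = 0.004).

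For other matrix genes neither mixture-adjusted fit kept the call. Fbn1, the microfibril protein fibrillin 1, was at 59.1, 220, 269 and 158 CPM in EC and 312 to 488 CPM in IPFc, with the EC library of mouse 1 far below the rest. Its log2 fold change of -1.37 (adjusted p = 0.042 with edgeR) was -0.94 without mouse 1 and -0.88 mixture-adjusted with 4 mice (adjusted p = 0.99), and -0.42 with both changes (adjusted p = 0.091). Col5a2, a chain of the fibril-forming type V collagen, was at -0.66, and at -0.51 without mouse 1, -0.19 mixture-adjusted and -0.02 with both. Bgn, the proteoglycan biglycan, was at -0.82, -0.61, -0.34 and -0.11 in the same order, and Timp3, a metalloprotease inhibitor, at -0.95, -0.81, -0.46 and -0.30. Fbn1 and Col5a2 have long transcripts, which were low in the EC library of mouse 1, and its part in their values was not tested.

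The 4 lower collagens were Col5a2, Col7a1, Col18a1 and Col28a1, and the median log2 fold change of the 34 was -0.495. Over all genes tested 1.07% were lower and 3.47% higher on the deposited counts. Mixture-adjusted without mouse 1 these shares were 0.188% and 0.576%. In that fit Col7a1 was the 1 collagen called lower, and the median of the collagens was 0.02. The other scale gave another count, since of the 24 fibroblast-borne collagens 1 was lower with 4 mice and 6 were lower without mouse 1, with medians of -0.39 and -0.195 and none higher. Without mouse 1, 4.52% of all fibroblast-borne genes were lower and 3.78% higher. Of 30 contractile genes, 3 were lower (Acta2, Tagln and Ldb3) with a median of -0.45, and none remained in the mixture-adjusted fit without mouse 1, where the median was -0.03. Of the 17 fibroblast-borne contractile genes none was called with 4 mice, and 5 were lower and 1 was higher without mouse 1. Acta2, smooth muscle actin, was at 33.2, 28.4, 41.2 and 22.8 CPM in EC and 53.3, 49.8, 70.6 and 39.3 CPM in IPFc, lower in 4 of 4 pairs although the groups overlapped, and at 451 ± 104 CPM in TGF-β libraries (SD, n = 4). Of 35 TGF-β targets and feedback genes, 7 were lower, among them Ccn4, Inhba and Klf10 at -0.79, -0.75 and -0.74, and 2 were higher, with a median of -0.38. The mixture-adjusted fit without mouse 1 called none lower and Ltbp2 higher, with a median of -0.05, and with 4 mice it called none. Of the 23 fibroblast-borne members none was called with 4 mice, and 8 were lower and 2 were higher without mouse 1. On the deposited counts 1 of 28 collagen processing genes, 3 of 15 elastic fibre genes, 3 of 32 matrix glycoproteins and proteoglycans and 3 of 38 proteases and inhibitors were lower, and 0, 1, 1 and 1 were higher. In the mixture-adjusted fit without mouse 1 these 4 lists had 2, 3, 2 and 4 genes higher, among them the crosslinking enzymes Lox and Loxl2 and the proteases Mmp3 and Mmp9, and 0, 1, 1 and 0 lower, and among their fibroblast-borne members without mouse 1 there were 4, 3, 5 and 5 higher and 1, 2, 6 and 6 lower. Genes named from the adjusted fits alone (C3, C4b, Ltbp2, Lox, Loxl2, Mmp3 and Mmp9) were chosen after their values were seen.

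**Figure D4:**
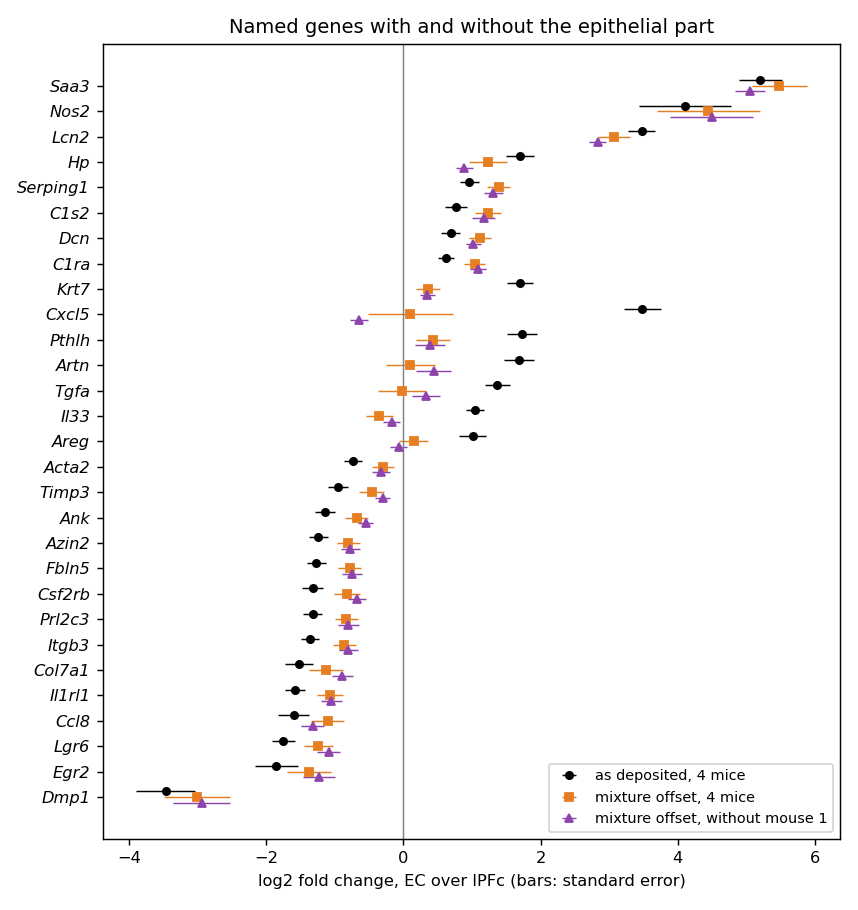
Log2 difference of EC against IPFc for named genes on the deposited counts (black circles) and after adjustment for the epithelial mixture with 4 mice (orange squares) and without mouse 1 (purple triangles), with standard errors as bars. The plotted values of Saa3, Nos2, Lcn2, Hp, Serping1, C1s2, Dcn and C1ra lie to the right of 0 on both scales, and those of Cxcl5, Pthlh, Artn, Tgfa, Il33 and Areg move from the right towards or past 0.

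Of 41 growth factors that act on epithelium, 5 were higher in EC and 3 were lower on the deposited counts, with a median log2 fold change of -0.09. Of all genes tested 3.47% were higher and 1.07% lower. The 5 higher genes had expected epithelial parts of 97.6% or more and none was called in either mixture-adjusted fit. Areg, the EGF receptor ligand amphiregulin, was at 86, 73.6, 73.4 and 105 CPM in EC and 26.6, 41.3, 42 and 67.6 CPM in IPFc. The EC libraries were all higher, at a log2 fold change of 1.01 (SE 0.20, adjusted p = 0.022 in edgeR's quasi-likelihood fit). The epithelial partners held 177 CPM in EC and 190 CPM in IPFc on average, the expected epithelial part was 97.6%, and the mixture-adjusted difference was 0.15 (adjusted p = 0.99). Pthlh, the parathyroid hormone-like signal of lung epithelium, was at 13.9 ± 3.8 and 4.45 ± 2.17 CPM (SD, n = 4), a log2 fold change of 1.73 with an expected part of 171% and an adjusted difference of 0.43. Artn, a ligand of the GDNF family, and Tgfa, another EGF receptor ligand, had log2 values of 1.68 and 1.37 and adjusted differences of 0.10 and -0.02. These 4 and Il33 are 5 of the 6 growth factors that the study chose for these fibroblasts, a list that is not independent evidence of its direction. The sixth, Ptn, which encodes pleiotrophin, had an expected epithelial part of 12.6%, and its levels overlapped, at 13.7, 7.32, 5.96 and 4.66 CPM in EC and 8.5, 10.1, 7.63 and 8.06 CPM in IPFc (log2 fold change -0.21, adjusted p = 0.69). Without mouse 1 Ptn was called lower on the deposited counts, at -0.53 (adjusted p = 0.02 with edgeR), and was at -0.16 mixture-adjusted (adjusted p = 0.87). In vehicle libraries Ptn was at 25.2 ± 6.9 CPM (SD, n = 3).

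The 3 lower growth factors were Fgf2, Inhba and Kitl. Fgf2, the basic fibroblast growth factor, was at 23.5 to 47.6 CPM in EC and 47 to 94.6 CPM in IPFc (log2 fold change -1.03), and its mixture-adjusted difference was -0.55 with 4 mice and -0.26 without mouse 1. Of 42 Wnt pathway genes, 4 were higher, all with an expected epithelial part over 50%, and 2 were lower, Lgr6 and Nkd1. Of 31 BMP pathway genes 3 were higher and of 14 IGF ligands and binding proteins 2 were higher, again all with parts over 50%. Over all genes tested 3.47% were higher and 1.07% lower.

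Over all genes tested 3.47% were higher in EC and 1.07% lower on the deposited counts. Of 11 CXC chemokines tested, 6 were higher in EC, with a median log2 fold change of 1.48. Of these 6, 5 had an expected epithelial part over 50%. Cxcl5, a neutrophil chemokine of epithelial cells, was at 727, 415, 395 and 589 CPM in EC and at 33.6, 53, 36.1 and 74.5 CPM in IPFc, a wide gap at a log2 fold change of 3.48 (SE 0.27, adjusted p = 0.00056 with edgeR). Its part was 112%, and the adjusted difference was 0.10 with 4 mice and -0.65 without mouse 1 (adjusted p = 0.012). Its epithelial partners held 1100 to 1770 CPM in EC and 98 to 179 CPM in IPFc (log2 fold change 3.27). Cxcl3, another ligand of CXCR2, was at 45.4 to 77.6 CPM and 3.15 to 7.9 CPM, with log2 values of 3.82 as deposited and, mixture-adjusted, 1.34 with 4 mice and 0.77 without mouse 1 (adjusted p = 0.99 and 0.34 with edgeR). In the epithelial libraries Cxcl3 was at 102 to 136 CPM in EC and 22 to 25.3 CPM in IPFc. The parts of the share and of the epithelial level in these values were not tested. Of 14 CC and other chemokines, Ccl20, which attracts cells with CCR6, was higher (3.85, part 74.2%), and Ccl8, Ccl9 and Cx3cl1 were lower. Of 45 NF-κB targets and feedback genes, 7 were higher and 1 was lower, 3 of the 7 with a part over 50%. Mixture-adjusted without mouse 1, Saa3, Lcn2, Sod2 and C3 were higher and Irf1 was lower. Irf1, an interferon regulatory factor, was at 66.1, 64, 63.6 and 80.2 CPM in EC and 89.4, 136, 160 and 318 CPM in IPFc, without overlap but with a wide IPFc range. Its log2 fold change was -1.19 (adjusted p = 0.022 with edgeR) and its mixture-adjusted difference was -0.86 with 4 mice (adjusted p = 0.99) and -1.11 without mouse 1 (adjusted p = 3.5e-05). The adhesion receptor gene Icam1, also in this list, had a log2 value of 1.09 that became 0.13 mixture-adjusted with 4 mice and 0.25 without mouse 1. Of 37 genes of IL-6 family signalling and STAT3, 4 were higher (Hp, Saa3, Icam1 and Lrg1) and Spp1 was lower, with a median of -0.12.

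Other lists had few DEGs, or DEGs with a large expected epithelial part. The counts on the deposited scale stand beside 3.47% higher and 1.07% lower over all genes tested. Of 45 DNA replication and mitosis genes, 6 were higher and none was fibroblast-borne, with medians of 0.33 as deposited and -0.315 mixture-adjusted with 4 mice. Of 25 cholesterol synthesis genes, 4 were higher, all with parts over 50%. Of 35 glycolysis and hypoxia genes, 5 were higher, all with parts over 50%. The mixture-adjusted fit without mouse 1 called 1 of the 35 higher, against 0.576% of all genes tested. Of the 11 fibroblast-borne members of this list none was called with 4 mice, and 6 were higher and none lower without mouse 1, where 3.78% of that class were higher. Ldha, lactate dehydrogenase A, was at 2120 to 2980 CPM in EC and 1140 to 1480 CPM in IPFc (log2 fold change 1.03), and its mixture-adjusted difference was 0.21 with 4 mice and -0.02 without mouse 1. Of 46 interferon-stimulated genes Irf1 was lower, and of 19 MHC class I genes and 17 prostaglandin genes edgeR called 0 on the deposited counts, with 4 and 5 genes at an unadjusted p under 0.05, 2 and 1 called by DESeq2 and 0 and 0 by limma-voom. Of 29 immediate early genes, 4 were lower and 1 was higher. Egr2, a growth-induced zinc finger factor, was at 3.32, 16.8, 8.46 and 3.79 CPM in EC and at 17 to 29.6 CPM in IPFc, with a log2 value of -1.85 and, mixture-adjusted, -1.38 with 4 mice (adjusted p = 0.86 with edgeR) and -1.23 without mouse 1 (adjusted p = 0.0088). Of 29 p53 targets 4 were lower and 2 higher, of 36 ER stress genes 2 were higher, of 18 lipid-storing and alveolar fibroblast genes 6 were higher, 5 of them with a part over 50%, and of 33 lineage transcription factors Sox9 and Egr2 were lower. Of the reference lists, 28 of 38 epithelial genes were higher and none lower, and of 29 fibroblast genes 1 was higher (Dcn) and 4 were lower, with medians of 1.22 and -0.29. The epithelial list is the one from which the share was estimated.

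The difference between the cocktails was also tested against that of the epithelial libraries. The epithelial libraries had 627 DEGs between EC and IPFc (3.54% of 17734), 263 higher in EC (1.48%) and 364 lower (2.05%). An interaction fit over the 16 libraries found 494 genes (2.72% of 18135) whose log2 fold change differed between the fractions, of which 467 were more positive (2.58%) and 27 more negative (0.149%) in the fibroblast libraries. No difference between the fractions was called for Saa3 and Lcn2, with 5.20 against 7.18 and 3.47 against 3.73 (adjusted p = 0.31 and 0.84 in edgeR's quasi-likelihood fit), or for Il1rl1, at -1.58 and -1.49 (adjusted p = 0.96). Saa3 had at most 0.239 CPM in the epithelial IPFc libraries, so its value of 7.18 rests on few reads there. Epithelial libraries held Il1rl1 at 1.6 to 9.24 CPM, below every fibroblast library. They also held matrix transcripts that were abundant in the fibroblast libraries, such as Bgn at 80.3 to 362 CPM and Fbn1 at 12.5 to 60.1 CPM. Fibroblast RNA in the epithelial libraries was not estimated, so a difference in epithelial cells and one carried by such RNA cannot be told apart. Among the genes that differed were Krt7, an epithelial keratin, with 1.70 in the fibroblast and 0.19 in the epithelial libraries (adjusted p = 0.0035), and Pthlh, Areg, Artn and Tgfa. These genes have expected epithelial parts over 50%, and the interaction fit holds no term for the share. Enpp2, with a part of 7.13%, had 0.94 in the fibroblast and -0.32 in the epithelial libraries (adjusted p = 0.0034).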

How the data were processed

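According to the labels and the paper, stranded libraries were sequenced on a NovaSeq instrument and trimmed with Trimmomatic 0.30, and the authors deposited raw read counts for each Ensembl gene, not normalized. The aligner and counting program are not given in the sources used here, and the genome is GRCm38 patch 6 in the paper and GRCm39 in the labels. No coordinates were taken from the count files. The authors' own paired analysis used DESeq2 1.34.0.

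From the deposited counts, EC and IPFc fibroblast libraries were compared with edgeR 4.0.16 in R 4.3.3 (TMM normalization, two-sided quasi-likelihood test, the mouse as a block). Genes whose raw counts averaged 1 or more across the 8 libraries were tested, and Benjamini-Hochberg adjusted p-values under 0.05 were called. The mouse numbers of the labels mark cultures with epithelial cells of 1 mouse, and deviations from the group means correlated across genes by 0.12 to 0.26 within a mouse and by -0.22 to 0.095 between mice. All fibroblasts are 1 line, so the p-values measure the spread between these cultures. Only counting error enters the limits given for genes without reads, and without molecular identifiers copies of a fragment count separately. Depth limits the EC library of mouse 1 most, where 3 reads are 0.587 CPM.

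The epithelial share was the median CPM ratio to the partner library over reference genes. The mixture adjustment entered as an offset, the log of the CPM expected from a fibroblast level common to both cultures of a mouse plus the epithelial part, with a prior of 0.1 CPM. CPM values are scaled by the library's total, without TMM. The paired test was run on simulated counts with known changes, and the mixture adjustment on simulated counts without a fibroblast change. Their outcomes are not reported here. Shares and summed markers were compared with exact sign-flip permutation tests over the 4 pairs.

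The comparison, the 37 gene lists and the tests were chosen with earlier results of these data known. Named genes were, for each direction, up to 10 DEGs with the smallest adjusted p among those with an absolute log2 fold change over 1, the same direction in 4 of 4 pairs and an expected epithelial part under 25% in every library of the higher group (2 of 407 candidates above and 59 of 77 below qualified), with the receptors and genes of the cocktail factors, the growth factors the paper shows and DEGs of the lists. The mixture fits without single mice, those with the Y-linked share and the fits of fibroblast-borne genes were added after the data were seen. Promoter windows came from RefSeq tables on GRCm38.p6, which held 13 of the 20 genes searched. Titles of the libraries of mice 3 and 4 end in R, whose meaning is not given, and these mice were also fitted apart.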

Additional observations from a re-analysis of the deposited data

Results flagged for a closer look

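Single libraries stood far from the other 3 of their group in 13 of the 146 groups of 4 examined, where chance alone would flag about 1 in 20, or 7.3. The epithelial share of the EC library of mouse 4 was 60.7%, against 40.6 to 41.8% in the others. By the Y-linked genes it was 37%, within the range of the others (32.4 to 42.5%). In the EC library of mouse 1, Il13ra2 was high at 15.8 CPM, Slpi at 248 CPM and Mgp, a matrix inhibitor of calcification, at 216 CPM, while Tgfbr2 was low at 125 CPM. Mgp was named after its values were seen, and the other 3 EC libraries held 57.6 to 79 CPM against 180 to 242 CPM in IPFc. Irf1 was highest in the EC library of mouse 4, at 80.2 CPM, and still below every IPFc library. In IPFc, the library of mouse 3 had 0.954 CPM of Saa3, 31.7 CPM of Lgr6 and 6.98 CPM of Dmp1, and that of mouse 4 had 46.3 CPM of Prl2c3, 174 CPM of Masp1, 7.9 CPM of Cxcl3 and 1480 CPM of Ldha.

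For 11 named genes the log2 fold change of EC against IPFc differed between the fibroblast and the epithelial libraries, by edgeR's interaction test. The difference, fibroblast minus epithelial, was 1.61 for Clu, 1.10 for Icam1, 1.40 for Cxcl3, 1.52 for Krt7, 1.08 for Areg, 1.07 for Artn, 1.54 for Pthlh and 1.00 for Tgfa, all of which had an expected epithelial part of 90.9% or more. The epithelial share of the fibroblast libraries was higher in EC by 24.0 points, and its part in these differences was not tested. The difference was 1.26 for Enpp2, with a part of 7.13%, and 5.17 for Chil3, which fell less in the fibroblast libraries (-2.84) than in the epithelial libraries (-7.99). Chil3 had at most 0.0692 CPM in the epithelial EC libraries, so the size of its difference rests on very few reads. Il13ra2 differed in the other direction by -1.81, with 0.19 in the fibroblast and 2.01 in the epithelial libraries.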

How the results depend on the processing

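The 820 DEGs of the deposited comparison stayed within 1.5 times with limma-voom, other scalings, a mean count of at least 10, robust estimation and repeated symbols left out (749 to 862). Without the pairing by mouse as a block there were 247, with DESeq2 1397, with no count filter 1302, with all 4 treatments in one model 1885, with mice 1 and 2 only 275 and with mice 3 and 4 only 3321. Leaving out 1 mouse gave 193 to 4046, the highest without mouse 1, where edgeR took the variance from the trend alone, which makes those p-values optimistic. The adjustments for epithelial RNA changed the count most. Subtraction of the share left 0 of 17182 genes (406 at an unadjusted p under 0.05) and with the Y-linked share 0, the offset left 2 and with the Y-linked share 2, and the offset without mice 1, 2, 3 and 4 in turn left 138, 0, 0 and 2. Among 785 genes with a part of at most 10% in every library 67 were called, and among fibroblast-borne genes 44, or 463 without mouse 1. The variance also came from the trend alone for the 785 genes and for the fibroblast-borne genes without mouse 1. The same holds for mice 1 and 2 only and for mice 3 and 4 only, so these p-values are optimistic too.

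Of the genes in the 37 lists 146 were called. This became 51 without the block for the pairing, 242 with 4 treatments, 53 and 426 for the 2 pairs of mice, 49 to 456 with 1 mouse left out, 0 with either subtraction, 2 with either offset, 45, 0, 0 and 2 for the offset without each mouse, 22 for parts of at most 10% and 15 for fibroblast-borne genes, or 128 without mouse 1. The share difference was 24.0 points with and without pairs, where the exact permutation p fell from 0.125 to 0.0286, and no alternative changed its direction. The 494 genes that differed between the fractions became 7 without the pairing and 2 to 782 with 1 mouse left out, the lowest without mouse 2 or mouse 3.

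Counting genes called in the deposited comparison or in the alternative, directions turned for 10 named genes. Cxcl5 was at -5.81 after subtraction and -0.65 with the offset without mouse 1. Areg was at -0.07 with the offset without mouse 1, and Artn at -0.10 and -0.20 with the offset without mouse 2 and mouse 4 and -1.15 after Y-linked subtraction. Il33 was at -4.87 after subtraction, -0.35 with the offset, -0.17, -0.38, -0.36 and -0.50 with the offset without mice 1 to 4, -0.23 with the Y-linked offset and -0.88 after Y-linked subtraction. Tgfa was at -0.02 with the offset and -0.06 and -0.42 without mouse 2 and mouse 4. Il13ra2 was at -1.0 and Tgfbr3 at 0.54 with the offset without mouse 1, and Tgfbr3 at 0.34 among fibroblast-borne genes without mouse 1. Crlf2 ranged from -0.25 to 0.21 with 1 mouse left out, the lowest without mouse 1, and was at -0.30 in mice 3 and 4. Ldha was at -0.28 after subtraction and -0.02 with the offset without mouse 1. C3, at -0.01 in the deposited comparison, ranged from -0.09 to 0.19 with 1 mouse left out, the highest without mouse 1, and was at 0.19 in mice 3 and 4, 0.61 with the offset without mouse 1 and 0.47 among fibroblast-borne genes without mouse 1. The cause of these changes was not tested.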

Other observations

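The 44 DEGs of the fit over fibroblast-borne genes also held genes outside the lists, named here after their values were seen. Of those higher in EC, Olfm4, a secreted olfactomedin, had a log2 value of 2.69 (adjusted p = 0.0055 with edgeR), Rarres2, which encodes the chemoattractant chemerin, 1.48, Hsd11b1, the enzyme that activates glucocorticoids, 1.10, Cyp7b1, an oxysterol hydroxylase, 1.08, Tnfrsf9, the costimulatory receptor 4-1BB, 0.84, and Cp, the copper carrier ceruloplasmin, 0.73. Of those lower, Asgr2, a chain of the asialoglycoprotein receptor, was at -2.01 (adjusted p = 0.025), Adamtsl3 at -1.48, Megf10, a phagocytic receptor, at -1.10, Peg3, an imprinted zinc finger gene, at -0.90, and Sema3a, a secreted guidance signal, at -0.71. All kept their direction and call without mouse 1, where they ranged from -2.25 for Asgr2 to 2.64 for Olfm4. That fit took the variance from the trend alone, which makes its p-values optimistic.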
